A study of Mus musculus with 2 samples.

Results

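Tetraspanins are small proteins that cross the membrane several times and gather integrins, proteases and receptors into patches of the cell surface and of endosomes. In macrophages they take part in adhesion, cell fusion, the release of vesicles and the trafficking of surface receptors. Their mRNAs were followed here in RAW264.7, a mouse macrophage-like cell line, with and without added miR-155, a microRNA that rises when macrophages are activated and that lowers mRNAs carrying matches to its seed. The members were chosen by gene symbol: Tspan14, which has been reported as a miR-155 target, with Tspan3, Tspan4, Tspan31, Cd9, Cd37, Cd53, Cd63, Cd81 and Cd82. Of these 10 genes, 9 had a probeset (a set of probes against one transcript) annotated to them alone, with 14 probesets out of 45101 on the array. Cd63 was not analysed here. Whether the report on Tspan14 drew on these same arrays was not checked. The value of Tspan14 here is therefore not an independent test of that report.

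The control cells carried the empty retroviral vector MSCV, and the other cells carried MSCV encoding miR-155. Both arms had been infected with polybrene, selected with puromycin at 7 µg/ml in medium with 10% serum, and cloned by limiting dilution. RNA of 5 clones was pooled per arm and hybridised to 1 Affymetrix array, so each group is 1 pool on 1 array. Differences between clones, cultures and arrays therefore cannot be told apart from the effect of the insert, and no test was possible. The sources used here do not give the promoter that drove the insert or the level of miR-155 reached.

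The miR-155 locus lies on mouse chromosome 16, plus strand (GRCm38.p6). The RefSeq sequences are shown because pairing to bases 2 to 8 of the mature strand, the seed, is what defines a candidate target. In the mature strands the capitals mark the seed; in the hairpin, at chr16:84714140-84714204, they mark the 5p strand.
mmu-miR-155-5p: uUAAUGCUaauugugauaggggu
mmu-miR-155-3p: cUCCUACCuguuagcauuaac
miR-155 hairpin: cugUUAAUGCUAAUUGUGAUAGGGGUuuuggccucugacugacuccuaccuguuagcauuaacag
The 5p strand of 23 bases occupies chr16:84714143-84714165, and of 1679 mature mouse miRNAs in the table used, 1 has its seed UAAUGCU, which is miR-155-5p itself. The mRNA letters that pair with this seed, followed by the A that often completes a site, read AGCAUUAA. The transcripts of the tetraspanins were not searched for this site.

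Tspan14 was the 1 member with a large difference. Its signal was 183 with the empty vector and 73.5 with miR-155, which is 2.49-fold lower (log2 ratio −1.32). The other 8 measured members lay within 1.5-fold, with log2 ratios from −0.36 for Cd37 to 0.45 for Cd82. The probeset of highest mean log2 signal stands for each gene, and 9097 genes in the upper 50% of that mean were kept, which corresponds to a signal floor of 25.8. All 9 measured members passed this filter with both readings above the floor. Among them 1 was at least 1.5-fold lower with miR-155, beside 5.99% of the genes kept, and the same gene was at least 2-fold lower, beside 1.43%. With an offset of 50 added to both signals Tspan14 was 1.89-fold lower, so that 2-fold call was lost. At least 1.5-fold higher were 0 members, beside 5.32% of the genes kept. No p-value underlies these counts, since there was 1 array per group. With the median log2 ratio of all probesets set to 0, 432 genes passed 1.5-fold downwards and 617 upwards, in place of 545 and 484, and the count of members was the same.

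**Figure D1:**
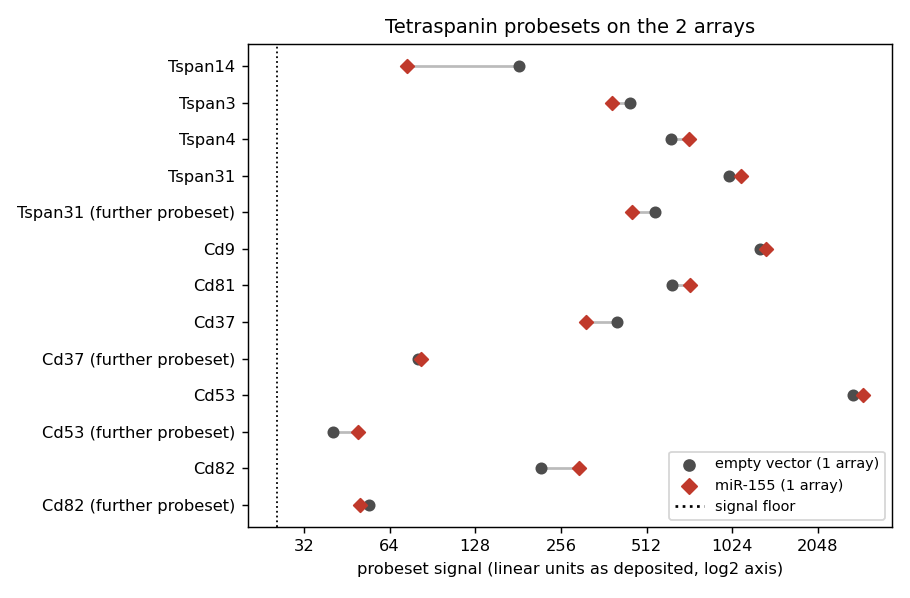
Signal of each member probeset whose mean reached the floor, on the empty-vector array (grey circles) and the miR-155 array (red diamonds), on a log2 axis; each row is 1 probeset and there is no error bar because each point is 1 array. The readings of Tspan14, 183 and 73.5, lie farthest apart, and the pairs of the other members lie within 1.5-fold.

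Tspan14 belongs to the TspanC8 group, tetraspanins named for the cysteines of their large extracellular loop, which escort the membrane protease ADAM10 out of the endoplasmic reticulum and to the cell surface. Its value rests on 1 probeset, of the type marked _s_at, whose probes match more than 1 transcript. Both readings were above the floor. To describe the spread, the robust SD of the log2 ratio was taken among the 500 genes nearest in mean signal, called the local SD here. It is a spread between genes and holds real differences as well as error. How far a gene would vary between repeat cultures or arrays is not measured by it. For Tspan14 the local SD was 0.31 around a local median of −0.05, which puts it 4.06 local SDs below that median. Of those 500 genes, 5 had a log2 ratio as low, Tspan14 included. Over all genes kept, 66 had a ratio as low, or 0.726%. The difference between Tspan14 and the median of the other 8 members was −1.45 on the log2 scale.

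The 5 genes whose log2 signals on the 2 arrays lay nearest to those of Tspan14 were Zbtb41, Tmem267, Lgalsl, Necap1 and Sfxn3. Zbtb41 read 173 and 73.1 (empty vector first, here and below), at a Euclidean distance of 0.084. Tmem267 read 176 and 70.3, at a distance of 0.085. The others had distances of 0.151 to 0.241 and log2 ratios of −1.17 to −1.01. With 2 arrays this likeness means only that the genes had like signals and a like difference.

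The other members named Tspan had small differences in both directions. Tspan3, a widely expressed family member, read 448 and 388, a log2 ratio of −0.21 with a local SD of 0.19. Tspan4, a partner of integrins that is also a marker of migrasomes, the vesicles left on the retraction fibres of moving cells, read 622 and 724 (log2 ratio 0.22, local SD 0.19). Tspan3 and Tspan4 each had 1 probeset and lay 0.83 local SDs below and 1.51 above the local median. Tspan31, a gene known from amplification in sarcomas, read 1001 and 1102 in its brightest probeset (log2 ratio 0.14, local SD 0.17). Its further probeset read 549 and 454, a log2 ratio of −0.27, so the probesets of Tspan31 went opposite ways. Another one, at 1.07 and 2.30, was below the floor on both arrays and gives no usable ratio.

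Cd9 and Cd81 are closely related tetraspanins that bind the immunoglobulin-family proteins Igsf8 and Ptgfrn and restrain the fusion of macrophages into giant cells. Cd9 read 1277 and 1343, a log2 ratio of 0.07 with a local SD of 0.16, the smallest difference among the members by brightest probeset. Cd81, also an entry factor for hepatitis C virus in human liver cells, read 630 and 726 (log2 ratio 0.20, local SD 0.19). Both were slightly higher on the miR-155 array, by 1.05-fold and 1.15-fold, and each had 1 probeset.

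Cd37, Cd53 and Cd82 are tetraspanins of leukocytes, the last also found in many other tissues. Cd37, which binds the β-glucan receptor Dectin-1 in macrophages, read 402 and 313 in its brightest probeset, a log2 ratio of −0.36 with a local SD of 0.22. Its further probeset read 80.6 and 82.4 (log2 ratio 0.03, local SD 0.36), so the lower reading was seen in 1 of its probesets. Cd53, a pan-leukocyte tetraspanin, read 2715 and 2954, a log2 ratio of 0.12 with a local SD of 0.13. Its further probeset read 40.4 and 49.4, a log2 ratio of 0.29, the same direction. Cd82, also called KAI1 and known as a suppressor of metastasis, read 217 and 297, 1.37-fold higher (log2 ratio 0.45, local SD 0.24). Its further probeset read 54.0 and 50.4, a log2 ratio of −0.10, and did not share that direction.

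The 4 members with a pair of probesets above the floor show how far probesets of 1 gene can differ. Their probesets differed in log2 ratio by 0.39 for Cd37, 0.17 for Cd53, 0.55 for Cd82 and 0.41 for Tspan31. Over 4115 genes with 6576 further probesets above the floor, the robust SD of the difference from the brightest probeset was 0.30. For Cd37, Cd82 and Tspan31 the log2 ratios of the pair had opposite signs. Each gap is then larger than the ratio of the brightest probeset by arithmetic, so nothing is read from that comparison. Both Cd53 probesets were higher with miR-155, at 0.12 and 0.29. Of 13 member probesets whose mean reached the floor, 1 was at least 1.5-fold lower, that of Tspan14, beside 7.13% of 15673 such probesets with a single symbol. At least 1.5-fold higher were 0 of the 13, beside 5.03%.

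By brightest probeset, 6 of the 9 members were higher and 3 lower on the miR-155 array, with a median log2 ratio of 0.12. The median of all genes kept was −0.05, and 42.0% of them had a ratio above 0. Tspan14 and Cd82 lay more than 2 local SDs from the local median, 2 of 9 members beside 9.81% of the genes kept. More than 1 local SD away were 7 of 9, beside 33.4% of the genes kept. Cd9 and Tspan3 were the exceptions, and apart from Tspan14 these distances correspond to at most 1.37-fold. The further probesets above the floor did not repeat these distances. Those of Cd37, Cd53 and Cd82 lay within 1 local SD, at 0.18, 0.60 and −0.17. For Tspan31 the further probeset lay at −1.10 local SDs and the brightest at 1.17.

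**Figure D2:**
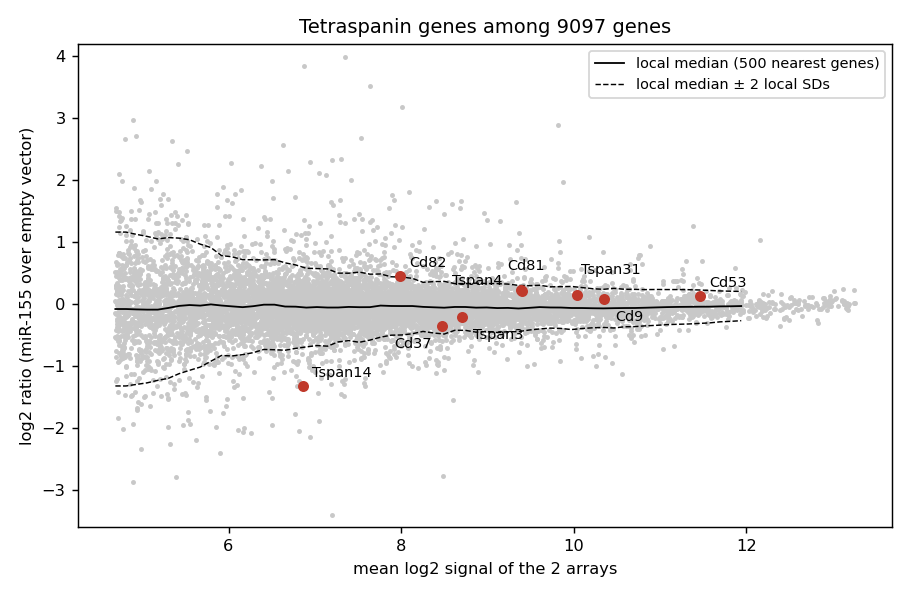
Log2 ratio of miR-155 over empty vector against mean log2 signal for the 9097 genes kept (grey points), with the 9 measured members in red, the local median as a line and 2 local SDs on either side dashed. Tspan14, at −1.32, lies below the dashed band, Cd82 at its upper edge, and the other 7 members inside it; the spread narrows as signal rises.

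Of 21 further tetraspanins listed, 20 were measured and 4 passed the signal filter: Cd151, Tspan5, Tspan13 and Tspan32. Of these, 1 was at least 1.5-fold lower and 0 were as much higher, beside 5.99% and 5.32% of the genes kept, with a median log2 ratio of −0.38. Cd151, a strong partner of laminin-binding integrins, read 142 and 87.9 in its brightest probeset, 1.61-fold lower (log2 ratio −0.69, local SD 0.33). Its 3 further probesets above the floor read 117 and 57.7, 133 and 58.7, and 100 and 71.6. All 4 were lower with miR-155, and 3 of these differed by at least 1.5-fold. The 2 remaining probesets of Cd151, below the floor on both arrays, read 9.86 and 9.42, and 21.2 and 18.0. The 3 probesets with the larger differences are of the type marked _x_at, whose probes can cross-hybridise with other transcripts, and the fourth gave a log2 ratio of −0.48.

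Tspan5, the other TspanC8 member above the floor, read 70.1 and 55.7 (log2 ratio −0.33, local SD 0.38). Its further probeset read 49.0 and 34.9 (log2 ratio −0.49). Both were lower on the miR-155 array, within 1.5-fold and close to the local SD. Tspan13 read 35.6 and 48.8 (log2 ratio 0.45, local SD 0.55). Tspan32, a leukocyte tetraspanin, read 54.6 and 40.8 (log2 ratio −0.42, local SD 0.54). Neither difference exceeded its local SD. The other 16 genes, with the TspanC8 members Tspan10, Tspan15, Tspan17 and Tspan33 among them, had 37 probesets with signals between 0.292 and 30.5. Only 2 of these 16 reached the floor on any array in any probeset, so their ratios are not given.

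**Figure D3:**
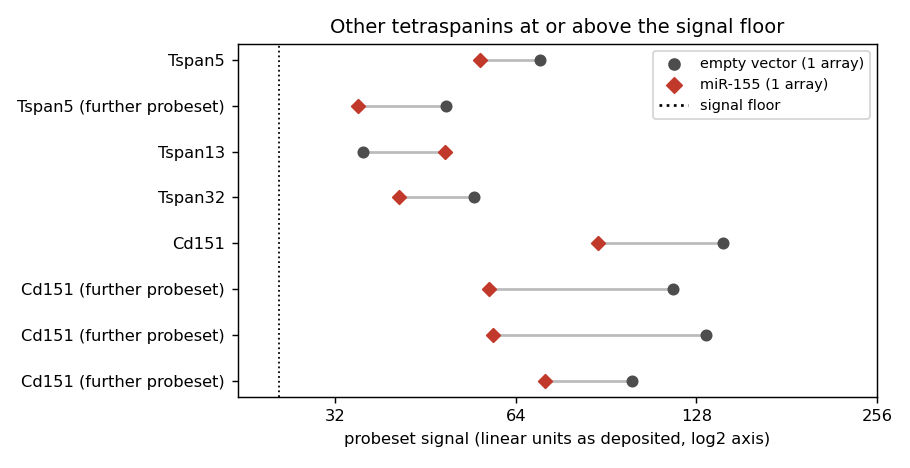
Signals of the probesets of Tspan5, Tspan13, Tspan32 and Cd151 with both readings above the floor (dotted line), on a log2 axis, for the empty-vector array (grey circles) and the miR-155 array (red diamonds), 1 array each. All 4 Cd151 probesets shown and both Tspan5 probesets read lower on the miR-155 array, and Tspan13 reads higher.

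Some tetraspanin genes are neighbours in the genome (RefSeq annotation of GRCm38.p6). Cd151 and Tspan4 have 1 protein-coding gene, Polr2l, between them on chromosome 7, and their log2 ratios were −0.69 and 0.22. Tspan32 and Cd81, next to each other on the same chromosome, had −0.42 and 0.20. Tspan14, on chromosome 14, had no other listed tetraspanin within 5 protein-coding genes.

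Adam10, the protease that TspanC8 proteins carry, was named here for that tie, with its values already seen. It read 997 and 688 in its brightest probeset, 1.45-fold lower (log2 ratio −0.54, local SD 0.17). Its further probesets read 282 and 204, and 211 and 140, with log2 ratios of −0.46 and −0.59. All 3 Adam10 probesets were lower on the miR-155 array. The related protease Adam17, which is not escorted by TspanC8 proteins and was likewise named after its values were seen, read 648 and 812 (log2 ratio 0.33), with 0.22 and 0.26 in its further probesets.

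Among 18 measured genes for partner proteins of tetraspanins, Adam10 and Adam17 included, 14 passed the filter. At least 1.5-fold lower were 3 and at least 1.5-fold higher 0, beside 5.99% and 5.32% of the genes kept, and the median log2 ratio was 0.20. The count of higher genes depended on the scaling. It was 4 once the log2 ratios of all probesets were centred on a median of 0 and 4 after quantile normalisation, alternatives added for the lists after the data were seen, while the lower count was 3 under both. The 4 genes, named after their values were seen, were the integrin subunits Itgam (147 and 220, log2 ratio 0.58) and Itgb2 (843 and 1221, 0.53), the adhesion receptor Icam1 (320 and 474, 0.57) and Cd47 (0.58). The scavenger receptor Cd36 read 2240 and 1024 (log2 ratio −1.13, local SD 0.15), with further probesets at −1.23 and −1.32. Timp1, the metalloprotease inhibitor that binds the tetraspanin CD63, read 80.2 and 40.4 (log2 ratio −0.99, local SD 0.45) in 1 probeset. The laminin-binding integrin subunit Itga6, a partner of Cd151, read 91.9 and 46.8 (log2 ratio −0.97, local SD 0.40), against −0.23 in its further probeset. Itga4, the α4 integrin, read 1467 and 1273 (log2 ratio −0.20), and its 3 further probesets ranged from 0.02 to 0.65, so they did not share its direction.

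Of 10 listed substrates that ADAM10 sheds, 5 passed the filter, 1 at least 1.5-fold lower and 1 at least 1.5-fold higher, beside 5.99% and 5.32% of the genes kept, with a median of 0.27. Il6ra, the interleukin-6 receptor, read 234 and 122 (log2 ratio −0.94, local SD 0.27), with −0.33 in its further probeset. App, the amyloid precursor protein, read 516 and 866 (log2 ratio 0.75, local SD 0.19), with 0.71 in its further probeset. Cd44, the hyaluronan receptor, was at 0.27 and the lipid receptor Trem2 at −0.18.

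All 13 listed genes of exosomes and multivesicular bodies, the compartments in which tetraspanins such as CD63 and CD81 are concentrated, passed the filter. At least 1.5-fold lower was 1 and at least 1.5-fold higher 1, beside 5.99% and 5.32% of the genes kept and so near the background, and the median log2 ratio was −0.13. Rab27a, a GTPase needed for exosome release, read 53.5 and 89.3 (log2 ratio 0.74, local SD 0.40). The lower gene was Flot2, named after its value was seen, at 35.4 and 21.5, the latter below the floor. Lamp1, a lysosomal membrane protein, was at −0.10 and the adaptor Sdcbp (syntenin) at −0.13. Of 8 macrophage fusion genes, 6 passed, 2 of them at least 1.5-fold lower and 0 as much higher, beside 5.99% and 5.32% of the genes kept, with a median of −0.09. Cd47 is also in the list of partners, and Cd44 and Trem2 are also in that of ADAM10 substrates, so these lists are not independent. Sirpa, the receptor for the "do not eat me" protein CD47, read 566 and 355 (log2 ratio −0.67, local SD 0.19), with −0.66 and −0.23 in its further probesets. The other lower gene was the vacuolar ATPase subunit Atp6v0d2, named after its value was seen, at 55.0 and 13.6, the latter below the floor. Cd47 read 740 and 1108, just within 1.5-fold (log2 ratio 0.58), with 0.49 and 0.66 in its further probesets, and passed 1.5-fold under both scalings named above.

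**Figure D4:**
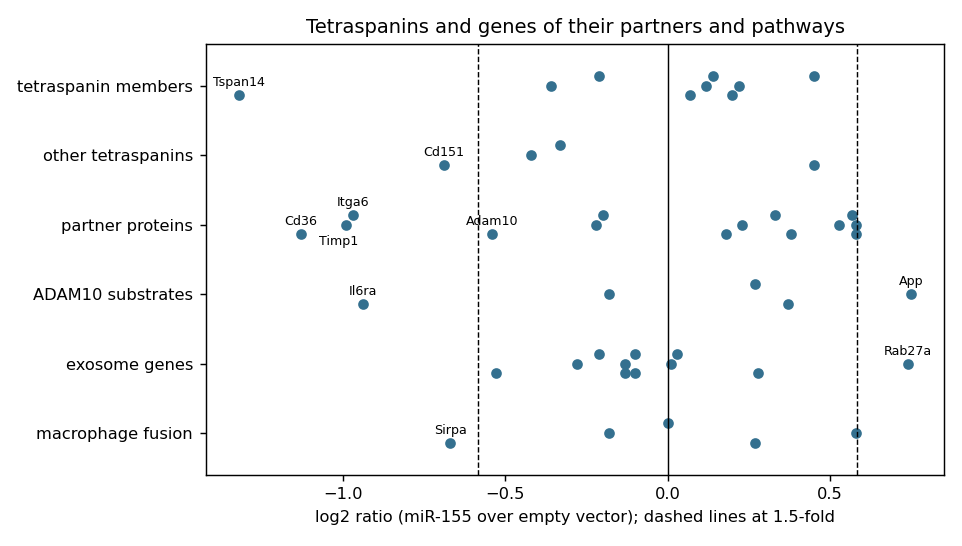
Log2 ratio of miR-155 over empty vector for each gene of the 6 lists shown with both readings above the floor. Each list has 1 point per gene, by its brightest probeset, and points are spread vertically for legibility. Cd47, Cd44 and Trem2 are in more than 1 list and have a point in each. Dashed lines mark 1.5-fold. Tspan14, at −1.32, is the lowest point shown, followed by the partner gene Cd36 at −1.13, and App (0.75) and Rab27a (0.74) are the highest.

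The macrophage markers were a list chosen for this report. Of its 10 genes 9 passed the filter, and Mrc1 did not. At least 1.5-fold lower were 2 and at least 1.5-fold higher 2, beside 5.99% and 5.32% of the genes kept. The lipopolysaccharide co-receptor Cd14 (1728 and 4145, log2 ratio 1.26) and the Fc receptor Fcgr1 (0.66) were the higher ones. The lower ones were Adgre1, which encodes F4/80 (−0.71), and the transcription factor Spi1 (−0.61). Lysozyme Lyz2 was at −0.36 and the growth factor receptor Csf1r at −0.25, with −0.99 and −0.96 in its further probesets. The summed signals, 19713 and 19816, hold these opposite differences, and their part in the tetraspanin values was not tested. Of markers of other cells, 0 of 5 B cell, 0 of 5 T and NK cell and 0 of 6 stromal genes reached the floor on either array. The summed signals were 41.8 and 44.3, 14.3 and 25.9, and 56.5 and 55.6 for these lists. Of 4 platelet and megakaryocyte genes 2 reached it, Pf4 at 30.4 and 53.5 and Itga2b at 44.5 and 40.5, with summed signals of 103 and 96.6 for the list. The median signals of all probesets were 15.4 and 14.1.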

How the data were processed

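The authors deposited 1 table of probeset intensities on a linear scale, 1 column per array; per the labels' protocols the RNA was biotin-labelled by standard procedures of the array maker. The sources used here do not say how probes were summarised, corrected for background or scaled. Probesets were named through the platform annotation: besides 64 control probesets, 34945 had 1 gene symbol, 932 several and 9160 were unlisted. Only the first kind was used, giving 18193 genes. Symbols were updated by Entrez identifier through RefSeq (GRCm38.p6), and 0 changed.

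The log2 ratio is log2 of the miR-155 intensity minus log2 of the empty-vector intensity, with no offset. Genes were filtered on the mean of both arrays, so 332 of the 9097 had 1 reading below the floor; no ratio is printed for these. The local SD is the scaled median absolute deviation among the 500 nearest genes. The number of arrays limits the precision. Probeset intensities depend on the probes, so signals of different genes were not read as relative amounts of mRNA. The genes nearest to Tspan14 were matched on signal only.

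The members, lists and alternatives were chosen with earlier results of these data known. Named were all members and the 5 genes nearest to Tspan14. In the 5 lists of other tetraspanins, partners, ADAM10 substrates, exosome and fusion genes, the 2 brightest of each were named. So were those at least 1.5-fold different with both readings above the floor, and the marker lists were treated alike. Among genes named outside this rule are Tspan13 and Tspan32, which passed the filter, Mrc1 and the dim TspanC8 genes. Genes marked above as named after their values were seen are also outside it. The steps were run on simulated data with planted differences larger than that of any member. That run does not test calls of the size seen here. Python 3.11.15, pandas 2.3.3, numpy 2.4.6 and matplotlib 3.10.9 were used.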

Additional observations from a re-analysis of the deposited data

How the results depend on the processing

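Tspan14 was lower on the miR-155 array under all 6 alternatives that gave it a value, with a log2 ratio from −1.32 to −0.92. Much of this was fixed in advance. With 1 probeset and both readings above the floor, dropping the filter, averaging probesets or raising low readings to the floor cannot change its ratio. An offset cannot change its sign. Centring the median gave −1.24 and quantile normalisation −1.27. None of these alternatives stands in for a repeat array. The value was −0.92 with an offset of 50 added to both signals, which shrinks ratios of dim probesets by construction. The other 2 alternatives leave Tspan14 out: it is not in the upper 25% of mean signal, and its 1 probeset is not of the plain type. The count of members at least 1.5-fold lower was therefore 0 under both, and 1 under the other 6. The count at least 1.5-fold higher was 0 under all 8, and the members' median stayed between 0.12 and 0.20. The share of all genes kept that were at least 1.5-fold lower was 5.99%; it was 2.15% with the offset, 2.09% in the upper 25% of signal, 10.0% with averaged probesets and 21.2% with no filter. The shares higher were 5.32%, 2.25%, 2.42%, 7.65% and 17.1% in that order. Among the other members, Cd82 fell from 0.45 to 0.18 and Tspan31 rose from 0.14 to 0.32 when all probesets of a gene were averaged; for Tspan31 that mean includes the probeset below the floor. All other values of the 8 members moved by less than the local SD. No paired analysis was possible because each group has 1 array, and leaving out an array would leave no comparison. Signal over background limits the dim tetraspanins, and 1 array per group limits every difference.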
